A study of Mus musculus with 9 samples.

Results

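The 6 genes described here, Thy1 and 5 genes of the Ly6 family (Ly6a, Ly6e, Ly6c1, Ly6c2 and Ly6k), belong to the 39017 genes of an RNA-seq count table. The genes were picked by name as surface proteins held in the membrane by a glycosylphosphatidylinositol (GPI) anchor, with earlier results of the same comparison known. Their levels and fold changes between genotypes are therefore a description, and no test is given for them. All 6 passed the filter on low counts and were among the 14693 genes tested.

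The libraries came from CD4+ T cells of lymph nodes of male C57BL/6 mice. The 4 cKO samples (replicates 2, 6, 7 and 8) were floxed/y Kdm6a with CD4-Cre (+/-). The 5 WT samples (replicates 1, 3, 4, 5 and 9) were floxed/y Kdm6a with CD4-Cre (-/-), so that both groups carried the floxed allele on their single X chromosome and differed in Cre. Kdm6a encodes a histone demethylase, and the comparison asks how gene expression in CD4+ T cells depends on it. CD4-Cre starts in the thymus at a stage before the CD4 and CD8 lineages part, so the deletion precedes the mature cells sampled here. No age or stimulation is stated in the labels, although the deposited table has "stim" in its name. The labels do not say that each sample came from a separate animal, so p-values measure only how these samples spread, in part perhaps for technical reasons.

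Proteins held by a GPI anchor alone sit in the outer leaflet of the plasma membrane and have no part that reaches the cytoplasm. Thy1 (CD90) is the classic surface marker of mouse T cells and thymocytes and belongs to the immunoglobulin superfamily. The Ly6 proteins are small and share a fold with the urokinase receptor uPAR. The Ly6 genes described here lie in a gene cluster on mouse chromosome 15. Several Ly6 proteins mark subsets and activation states of lymphocytes, and Ly6a and the Ly6c genes are known to be induced by interferons.

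Thy1 was the member that set cKO apart from WT: its level was 3.66-fold lower in cKO, and every cKO library lay below every WT library. Ly6e had a change of -12.9%, with groups that overlapped. Ly6a, Ly6c1 and Ly6c2 varied more between samples of 1 genotype than nearly all other genes, with the same cKO sample (cKO 2) and the same WT sample (WT 5) at the top of its group for all 3. Ly6k was near 1 CPM, the unit of counts scaled by the normalised library total, in both genotypes. Of the 6 genes, 1 had groups that did not overlap, against 15.9% of all tested genes (8.78% with cKO below WT and 7.08% with cKO above WT). The median log2 fold change (cKO over WT) of the members was -0.05, against 0.0012 over all tested genes. The members were selected on this contrast, so nothing is read from either count or median.

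The genes lie in 2 places of the mm10 build. Thy1 (ENSMUSG00000032011) is on the plus strand of chromosome 9, from 44043384 to 44048579. The Ly6 genes are on chromosome 15. Ly6k (ENSMUSG00000044678) runs from 74796874 to 74799986 on the minus strand, Ly6e (ENSMUSG00000022587) from 74955051 to 74959905 on the plus strand, and Ly6a (ENSMUSG00000075602) from 74994877 to 74998031 on the minus strand. Ly6c1 (ENSMUSG00000079018, 75044018 to 75048830) and Ly6c2 (ENSMUSG00000022584, 75108158 to 75111970) follow, both on the minus strand. Ly6k overlaps the antisense gene Gm17189 over 395 exonic bases. The libraries came from a stranded kit, but the sources used here do not give the strand setting of the counting. Whether the counts keep reads of this pair apart is therefore unknown.

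Ly6c1 and Ly6c2 are near copies of each other, which bears on how their reads could be assigned. Their coding sequences have 393 bases each and are identical at 384 of them (97.7%), with a longest identical run of 188 bases. Bases 1 to 90 of each coding sequence in mm10, which hold 6 of the 9 differences, are shown 5′ to 3′ with the differing bases in capitals.
Ly6c1: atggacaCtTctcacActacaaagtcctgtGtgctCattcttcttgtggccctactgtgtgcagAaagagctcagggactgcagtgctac
Ly6c2: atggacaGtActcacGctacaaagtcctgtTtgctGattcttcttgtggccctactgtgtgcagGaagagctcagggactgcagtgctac
The Ly6a coding sequence was 83.7% identical to that of Ly6c1 and 83.5% to that of Ly6c2. Of all stretches of 50 bases in the annotated transcripts, 32.8% of those of Ly6c1 also occurred in another gene (21.5% in Ly6c2 and 11.1% in Ly6a). The share was 14.4% for Ly6c2 and 19% for Ly6a (15% in Ly6c1), and 0% for Thy1, Ly6e and Ly6k. The sources used here give neither the read length nor the handling of reads with several positions. The values of Ly6a, Ly6c1 and Ly6c2 as separate genes are uncertain to that extent.

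The promoters of the Ly6c pair are shown because both genes differed between samples of 1 genotype in a like order. RefSeq (GRCm38.p6) gave a window of 300 bases, most of them before the start, for 2 of the 6 members, Ly6c1 and Ly6c2. Each had 2 starts, of which the upstream one is printed. The Ly6c1 window is chr15:75048788-75049087 and the Ly6c2 window is chr15:75111922-75112221, both read on the minus strand, 5′ to 3′, with capitals at bases that differ or have no partner in the alignment.
Ly6c1 promoter: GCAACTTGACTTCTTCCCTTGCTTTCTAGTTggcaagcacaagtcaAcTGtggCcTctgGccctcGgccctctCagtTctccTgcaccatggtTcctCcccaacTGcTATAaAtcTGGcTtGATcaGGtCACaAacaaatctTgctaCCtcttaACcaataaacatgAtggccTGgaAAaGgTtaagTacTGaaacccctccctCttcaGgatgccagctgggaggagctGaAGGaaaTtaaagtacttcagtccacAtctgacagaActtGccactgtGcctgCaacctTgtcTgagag
Ly6c2 promoter: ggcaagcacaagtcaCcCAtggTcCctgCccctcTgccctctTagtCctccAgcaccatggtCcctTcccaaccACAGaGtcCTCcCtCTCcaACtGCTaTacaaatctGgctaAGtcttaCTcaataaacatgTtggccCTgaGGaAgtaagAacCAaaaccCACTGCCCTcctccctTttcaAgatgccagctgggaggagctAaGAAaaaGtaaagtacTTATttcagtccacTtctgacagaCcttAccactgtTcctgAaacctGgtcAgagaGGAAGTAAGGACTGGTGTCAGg
The windows were identical at 208 of 266 aligned bases (78.2%), and the longest identical run was 20 bases. They held 1 CpG in Ly6c1 and 0 in Ly6c2, against a median of 7 over 32851 promoter windows of the same length. Interferon signalling acts through GAS and ISRE elements. The GAS letters TTCNNNGAA were found on either strand in 8.3% of all windows and the ISRE core (GAAA, any 2 bases, GAAA) in 3.44%, and neither motif was found on either strand of these 2 windows. This says only that these letters are not in these windows.

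The targeted gene and the lineage genes were examined first. Kdm6a was at 42.7 ± 1.48 CPM in cKO (41.5 to 44.8) and 62.7 ± 1.59 CPM in WT (60.0 to 63.8; SD, n = 4 and 5), with a log2 fold change of -0.55 (SE 0.04) and an adjusted p of 2.89e-05 by edgeR's quasi-likelihood test over all genes. Its groups did not overlap, and a count over the whole gene does not resolve the floxed part. Cd4 was at 957 ± 43.6 CPM in cKO and 873 ± 35.6 CPM in WT (log2 fold change 0.13, edgeR adjusted p = 0.0480). This call of Cd4 was kept in 8 of 16 alternative settings. Cd3e was at 238 ± 7.26 CPM in cKO and 248 ± 5.85 CPM in WT. Ptprc, the pan-leukocyte CD45 gene, was at 1787 ± 75.8 CPM in cKO and 1666 ± 101 CPM in WT. Total counts were 20587482 to 23820732 in cKO and 21482927 to 26387488 in WT (exact permutation p = 0.302, two-sided). The mitochondrial share of counts was 2.59% ± 0.138 in cKO and 2.38% ± 0.0572 in WT (exact permutation p = 0.0159, two-sided; the smallest that the 126 splits allow is 0.00794), and its part in the results was not tested. Without WT 1, 3, 4 or 5 the exact permutation p was 0.0571, from fewer possible splits. The difference was then 0.197 to 0.22 percentage points, against 0.214 with all samples. The edgeR test called 2324 of the 14693 genes at an adjusted p below 0.05 (15.8%), of which 1028 were higher (7%) and 1296 lower (8.82%) in cKO. The count was 1263 without cKO 6, 1504 without cKO 8 and 1528 without WT 4. With upper-quartile scaling the split turned to 1265 higher and 1068 lower. In bulk RNA, fewer cells with a transcript and less transcript per cell cannot be told apart, which holds for every level given here.

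Thy1 had 328, 198, 320 and 301 CPM in cKO 2, 6, 7 and 8, against 943, 977, 1210, 978 and 1134 CPM in WT 1, 3, 4, 5 and 9. The highest cKO library was thus far below the lowest WT library, and cKO 6 was the lowest of all. The means were 287 ± 60.2 CPM in cKO and 1048 ± 117 CPM in WT (SD, n = 4 and 5), a log2 fold change of -1.87 (SE 0.14). The counts behind these values ran from 4785 to 29717 per library, so counting error is small beside the spread between samples. Among all tested genes 21 had a lower log2 fold change, and none of the 2631 genes that averaged 100 CPM or more did. By mean CPM Thy1 ranked 613 of the tested genes in cKO and 55 in WT. Leaving out any 1 library moved the log2 fold change to between -1.94 (without cKO 2) and -1.73 (without cKO 6).

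**Figure D1:**
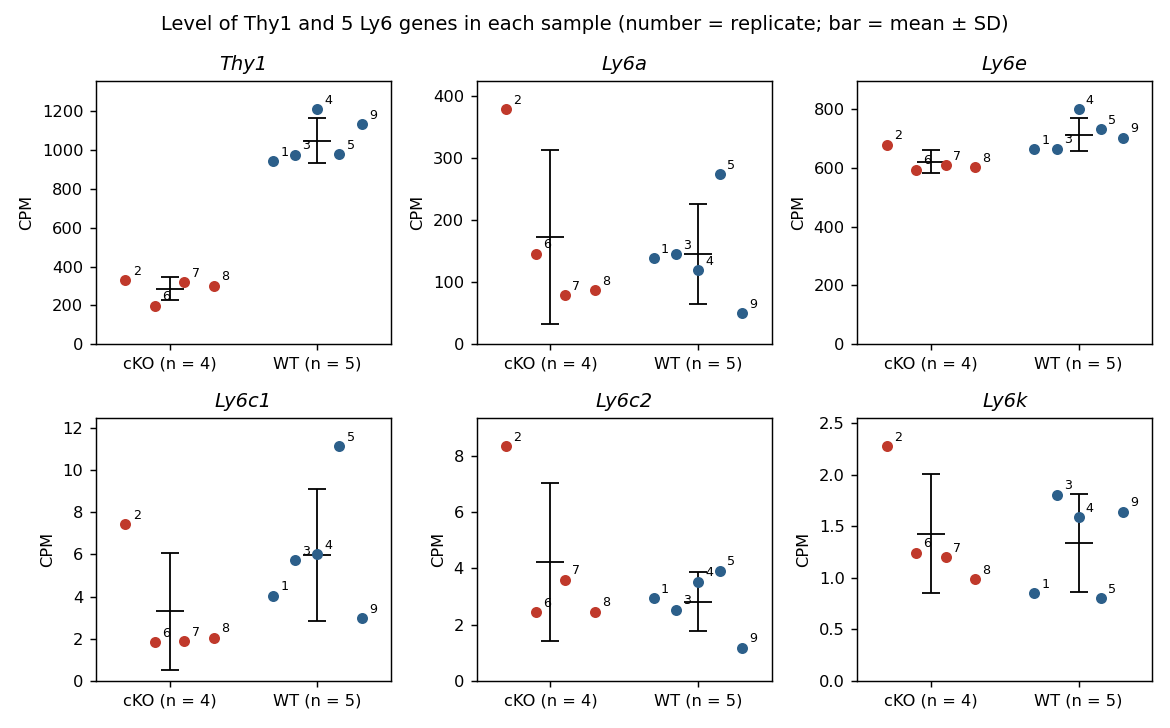
Level of each of the 6 genes in CPM (vertical axes, from 0) in every cKO and WT library; points are samples with their replicate number, and bars are the mean ± SD. Thy1 lies at 198 to 328 CPM in cKO and at 943 to 1210 CPM in WT, while the groups of the other 5 genes overlap and cKO 2 and WT 5 stand high for Ly6a and Ly6c1.

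Ly6e, the thymic shared antigen, known in mouse as a receptor for the placental protein syncytin-A, was even between samples. It had 678, 593, 609 and 602 CPM in cKO 2, 6, 7 and 8, against 664, 664, 799, 732 and 703 CPM in WT 1, 3, 4, 5 and 9. Only cKO 2 lay above the lowest WT libraries, and the other 3 cKO libraries lay below all 5 WT libraries. The means were 620 ± 39.0 CPM in cKO and 712 ± 56.4 CPM in WT (SD), with a log2 fold change of -0.20 (SE 0.06). Its within-group SD was 0.10 on the log2 scale, close to the median of 0.11 over all tested genes. Without any 1 library the log2 fold change stayed between -0.25 (without cKO 2) and -0.16 (without WT 4).

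Ly6a encodes Sca1, a marker of blood stem cells that also appears on activated T cells. It had 379, 146, 79.1 and 87.4 CPM in cKO 2, 6, 7 and 8, against 139, 145, 119, 274 and 50.2 CPM in WT 1, 3, 4, 5 and 9. The groups overlapped fully: cKO 2 was the highest sample and WT 9 the lowest, 7.56-fold apart. The means were 173 ± 141 CPM in cKO and 145 ± 81.3 CPM in WT (SD), with a log2 fold change of 0.25 (SE 0.50), so the difference was smaller than its error. The within-group SD of 0.95 on the log2 scale was larger than that of 99.9% of tested genes. The cKO 2 value was 3.64-fold the mean of the other cKO libraries (104 CPM), and the WT 5 value was 2.42-fold the mean of the other WT libraries (113 CPM). The sign of the difference rested on such samples: the log2 fold change was -0.48 without cKO 2 and 0.61 without WT 5, and -0.12 without both.

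The Ly6c pair encodes the Ly6C antigen, carried by inflammatory monocytes and by subsets of memory and activated T cells. Ly6c1 had 7.42, 1.82, 1.87 and 2.06 CPM in cKO 2, 6, 7 and 8, against 4.03, 5.71, 6.00, 11.1 and 2.98 CPM in WT 1, 3, 4, 5 and 9. All cKO libraries except cKO 2 were below all WT libraries. The means were 3.29 ± 2.75 CPM in cKO and 5.97 ± 3.14 CPM in WT (SD), with a log2 fold change of -0.83 (SE 0.47). Without cKO 2 it was -1.62, and without WT 5 it was -0.49. With both left out, a setting added after the data were seen, it was -1.28 (SE 0.25). Ly6c1 counts were 39 to 236 per library.

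Ly6c2 had 8.35, 2.44, 3.60 and 2.46 CPM in cKO 2, 6, 7 and 8, against 2.95, 2.53, 3.53, 3.92 and 1.18 CPM in WT 1, 3, 4, 5 and 9. Here cKO 2 was again the highest sample and the remaining cKO libraries lay within the WT range. The means were 4.21 ± 2.81 CPM in cKO and 2.82 ± 1.06 CPM in WT (SD), with a log2 fold change of 0.60 (SE 0.40), which was 0.01 without cKO 2. Its counts were 31 to 198 per library.

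The 2 Ly6c genes thus had opposite orders of the group means. The ratio of Ly6c1 to Ly6c2 was 0.889, 0.746, 0.52 and 0.836 in cKO 2, 6, 7 and 8, against 1.37, 2.25, 1.70, 2.84 and 2.52 in WT 1, 3, 4, 5 and 9. The ratio was below 1 in every cKO library and above 1 in every WT library. For this ratio cKO 2, the highest cKO library for both genes, lay with its own group. The ratio was formed after the values were seen and carries no test, and it rests on how reads of near-identical copies were assigned. The summed level of both genes was 15.8, 4.27, 5.47 and 4.52 CPM in cKO 2, 6, 7 and 8, and 6.98, 8.25, 9.53, 15.1 and 4.16 CPM in WT 1, 3, 4, 5 and 9. As 1 feature the pair had a log2 fold change of -0.21 (SE 0.43), so that the sum showed less of a difference than either gene alone.

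Ly6k, known in mouse from testis, where it is needed for sperm to pass into the oviduct, was the lowest member. It had 2.28, 1.24, 1.2 and 0.984 CPM in cKO 2, 6, 7 and 8, against 0.853, 1.80, 1.59, 0.803 and 1.64 CPM in WT 1, 3, 4, 5 and 9. The groups overlapped, with cKO 2 the highest. The log2 fold change was 0.10 (SE 0.31), from 17 to 54 counts per library, and turned to -0.23 without cKO 2, -0.04 without WT 1 and -0.03 without WT 5.

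**Figure D2:**
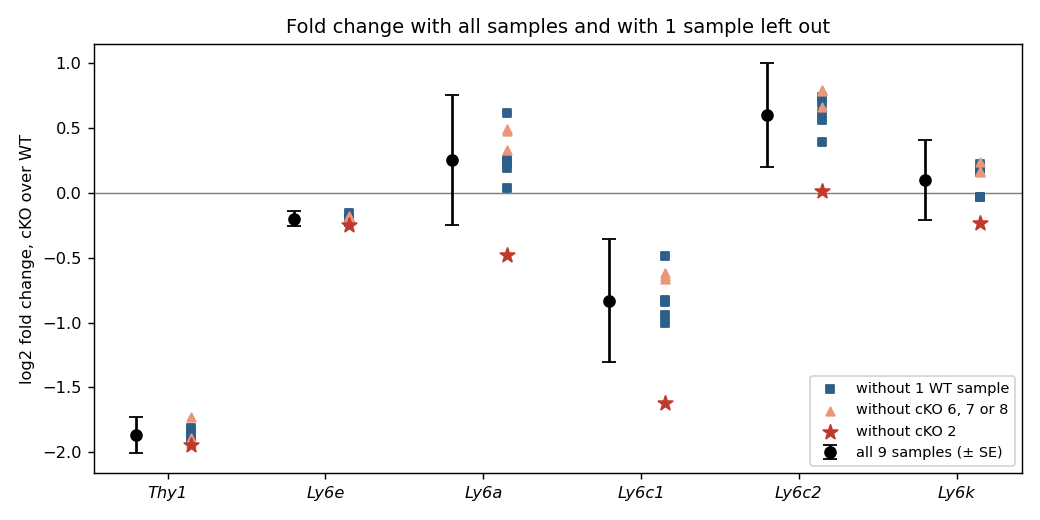
Log2 fold change (cKO over WT, vertical axis) of each gene with all 9 samples (black, ± SE) and with 1 library left out (stars without cKO 2, triangles without cKO 6, 7 or 8, squares without 1 WT library). Thy1 stays between -1.94 and -1.73 and Ly6e between -0.25 and -0.16, while Ly6a runs from -0.48 to 0.61.

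Levels of different genes were compared per kilobase of exon. In cKO the means were 164 CPM per kb for Ly6e, 144 for Ly6a, 95.8 for Thy1, 1.96 for Ly6c1, 1.72 for Ly6k and 1.54 for Ly6c2. In WT they were 350 CPM per kb for Thy1, 188 for Ly6e, 121 for Ly6a, 3.56 for Ly6c1, 1.61 for Ly6k and 1.03 for Ly6c2. In cKO every Ly6e value (157 to 179 CPM per kb) lay above every Thy1 value (66.2 to 110), and in WT every Thy1 value (315 to 404) lay above every Ly6e value (175 to 211). On this scale the higher of both was thus Ly6e in cKO and Thy1 in WT. Ly6a spanned 65.7 to 315 CPM per kb in cKO and 41.6 to 228 in WT, so its place between Ly6e and Thy1 in cKO and below Ly6e in WT was within the spread. Neighbours in the order of Ly6c1, Ly6k and Ly6c2 overlapped in both genotypes, while in WT every Ly6c1 value lay above every Ly6c2 value. The summed level of the 6 genes was 943 to 1404 CPM in cKO and 1753 to 2140 CPM in WT.

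The members also differed in how they varied within a genotype. Relative to the mean of its own group on the log2 scale, cKO 2 stood at 1.44 for Ly6a, 1.43 for Ly6c1, 1.17 for Ly6c2 and 0.71 for Ly6k, but at 0.22 for Thy1 and 0.13 for Ly6e. Among WT libraries, WT 5 stood at 1.11 for Ly6a, 1.03 for Ly6c1 and 0.56 for Ly6c2, and at -0.61 for Ly6k. At the other end WT 9 stood at -1.34 for Ly6a, -0.84 for Ly6c1 and -1.09 for Ly6c2. Ly6a and the Ly6c pair were thus high in the same libraries and low in the same WT library, whereas Thy1 deviated most in cKO 6 (-0.51). As given above, 15% of the Ly6a stretches also occur in Ly6c1, and the part of such shared reads in the like course of both genes was not tested. Within-group SDs on the log2 scale were 0.82 for Ly6c1 (larger than 99.7% of tested genes), 0.73 for Ly6c2 (99.4%), 0.51 for Ly6k (96.8%) and 0.25 for Thy1 (79.4%).

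**Figure D3:**
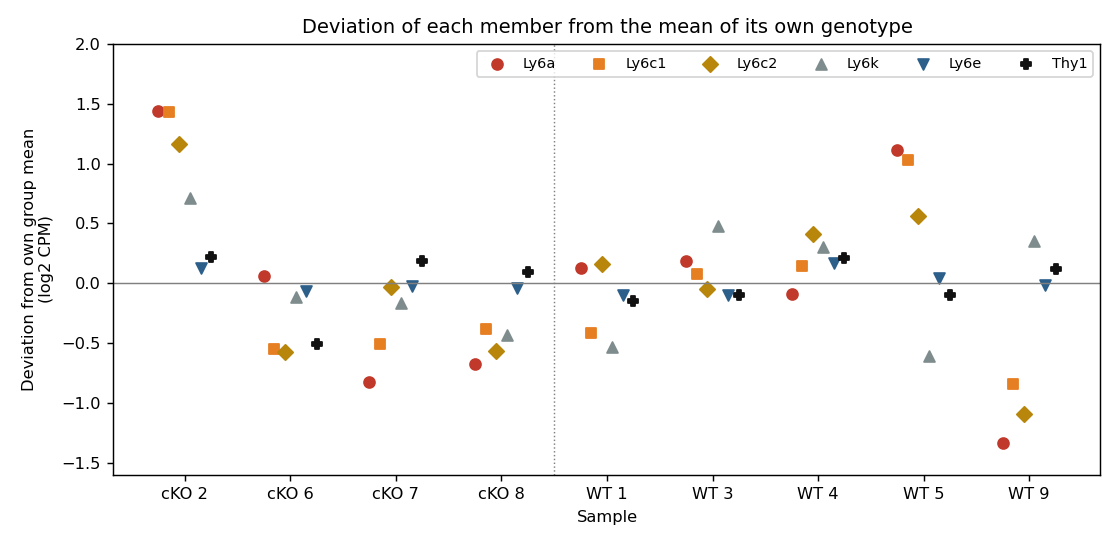
Deviation of each gene from the mean of its own genotype in log2 CPM (vertical axis) for the 4 cKO libraries, left, and the 5 WT libraries, right of the dotted line. Ly6a, Ly6c1 and Ly6c2 lie together above 1 in cKO 2 and below -0.8 in WT 9, while Thy1 and Ly6e stay near 0 except for Thy1 at -0.51 in cKO 6.

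Markers of other cells were read in the same libraries, since Ly6C and Sca1 are also carried outside the T lineage. Neutrophil genes were at 2 counts or fewer, with S100a8, S100a9, Ly6g, Elane and Retnlg at 0 in all libraries. Of the 8 macrophage and monocyte genes, Adgre1, Lyz2, Cd14 and Fcgr1 had at most 5 counts in any library. Csf1r was at 15.5 ± 1.86 CPM in cKO and 14.3 ± 2.20 CPM in WT, and Itgam was lower in cKO (log2 fold change -1.82, edgeR adjusted p = 0.00297). Ccr2 and Cd68 were at log2 fold changes of -0.99 and 0.30 (edgeR adjusted p = 0.0660 and 0.232). The list summed to 19.3 to 23.7 CPM in cKO and 20.9 to 25.1 CPM in WT. The 6 natural killer cell genes summed to 11.8 to 43.1 CPM in cKO and 7.33 to 19.8 CPM in WT, of which Eomes alone gave 39.0 CPM in cKO 2 and 18.2 CPM in WT 5. Of that list Prf1 was at 1.26 ± 0.542 CPM in cKO and 1.29 ± 0.450 CPM in WT (log2 fold change -0.03, edgeR adjusted p = 0.968). Ncr1 had at most 2 counts, Klrb1c at most 18 and Klre1 at most 32 in any library (42 over the cKO and 17 over the WT libraries for Klre1). Eomes is also made by T cells, and the part of this list in the Ly6a and Ly6c values was not tested. The CD8 genes summed to 15.1 to 19.1 CPM in cKO and 11.9 to 15.1 CPM in WT, with Cd8b1 higher in cKO (log2 fold change 0.28, edgeR adjusted p = 0.0296). The B cell genes summed to 2.95 to 4.43 CPM in cKO and 3.31 to 5.54 CPM in WT, with Cd79b lower in cKO (log2 fold change -0.91, edgeR adjusted p = 0.0104), and Ms4a1 and Cd22 at log2 fold changes of 0.90 and 0.56 (edgeR adjusted p = 0.151 and 0.272). Dendritic cell genes summed to 2.74 to 3.75 CPM in cKO and 2.21 to 3.60 CPM in WT, and erythroid genes to 0.447 to 0.864 CPM in cKO and 0.472 to 1.03 CPM in WT. The stroma and vessel list summed to 84.6 to 106 CPM in cKO and 96.8 to 119 CPM in WT, nearly all of it Pecam1, which T cells also make.

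Interferon signalling was read through 15 genes, because Ly6a and the Ly6c genes are known to be induced through it. The edgeR test called 5 of the 15 (33.3%, against 15.8% of all tested genes). This list too was chosen with earlier results of these data known, so nothing is read from its share. Irf1 was higher in cKO at 289 ± 50.3 CPM, against 212 ± 33.0 CPM in WT (log2 fold change 0.45, SE 0.13, adjusted p = 0.0336). Irf1 encodes a transcription factor of the pathway. The receptor chain Ifnar1 was lower in cKO at 106 ± 5.06 CPM, against 129 ± 6.59 CPM in WT (log2 fold change -0.28, SE 0.05, adjusted p = 0.00325). Ifngr1, a chain of the interferon gamma receptor, was lower at 63.7 ± 10.9 CPM in cKO, against 84.2 ± 8.62 CPM in WT (log2 fold change -0.40, SE 0.11, adjusted p = 0.0288). The feedback inhibitor Socs1 was lower at 153 ± 7.85 CPM in cKO, against 184 ± 11.5 CPM in WT (log2 fold change -0.27, SE 0.05, adjusted p = 0.0072). The list therefore did not move in 1 direction, and its median log2 fold change was 0.0016. Of these calls Ifnar1 and Socs1 remained in all 16 alternative settings, while the number called was 2 without cKO 6, WT 3, WT 4 or WT 9 and 3 without cKO 7.

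The same genes were read in the libraries where Ly6a stood out. In cKO 2, 11 of the 15 lay above their group mean, with a median deviation of 0.07 on the log2 scale. In WT 5, 8 of the 15 did, with a median of 0.05. In WT 9, where Ly6a stood at -1.34, 7 of the 15 did, with a median of -0.0045. In cKO 2, WT 5, WT 4 and WT 9, in that order, Irf7 deviated by 0.32, 0.62, 0.65 and -0.34. In the same order Irf1 deviated by 0.17, 0.32, -0.10 and -0.22, and Irf8 by 0.38, 0.55, -0.72 and -0.97. Ifng deviated by 0.75, -0.04, -0.85 and -0.67. Ly6a stood at -0.09 in WT 4. For cKO 6, with Ly6a at 0.06, Irf7 deviated by -0.35, Irf1 by 0.26, Irf8 by 0.38 and Ifng by 0.07. WT 1, with Ly6a at 0.13, had Irf7 at -0.54, Irf1 at 0.12, Irf8 at 0.98 and Ifng at 1.49. The part of this pathway in the Ly6a and Ly6c values was not tested.

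The Ly6/uPAR family was listed with 38 other genes, of which 35 were matched to the table. Of these, 14 had 0 counts in all 9 libraries, which allows up to 3 counts or 0.115 to 0.144 CPM per library, for counting error only. Only 5 of the 35 were abundant enough to test, and the most counts of an untested gene in any library were 20, for Ly6d. The edgeR test called 1 of the 5 (20%, against 15.8% of all tested genes), Lypd6b, lower at 1.5 ± 0.574 CPM in cKO, against 2.93 ± 0.490 CPM in WT (log2 fold change -0.96, SE 0.24, adjusted p = 0.0207; 0.0566 without cKO 7). The more abundant tested genes were not called: Plaur, the uPAR gene itself, was at 4.74 ± 0.974 CPM in cKO and 5.01 ± 3.10 CPM in WT, and Lynx1 at 4.69 ± 0.371 CPM in cKO and 3.91 ± 0.120 CPM in WT. Ly6d had 45 counts over the cKO libraries and 13 over the WT libraries and was called higher in cKO by DESeq2 (log2 fold change 2.20, adjusted p = 0.0082) and by edgeR with no count filter (2.12, adjusted p = 0.0117). The matched genes of the list summed to 11.8 to 16.2 CPM in cKO and 12.3 to 19.4 CPM in WT, below the Ly6a or Ly6e value of any library.

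Among 22 tested genes listed as other GPI-anchored proteins of T cells, 12 were called (54.5%, against 15.8% of all tested genes). Of these, 5 were higher and 7 lower in cKO. The list was chosen with earlier results of these data known, so nothing is read from its share. Nrn1, the neuronal protein neuritin, was higher at 98.2 ± 19.8 CPM in cKO, against 26 ± 3.78 CPM in WT (log2 fold change 1.92, SE 0.14, adjusted p = 3.05e-05). Ulbp1, a ligand of the NKG2D receptor, was higher at 25.3 ± 2.42 CPM in cKO, against 19.7 ± 0.632 CPM in WT (0.36, SE 0.06, adjusted p = 0.00493). The mouse Ulbp1 protein spans the membrane and is not held by a GPI anchor, and the counts of this list include it. Cd48, a ligand of the CD2 and CD244 receptors, was lower at 131 ± 14.4 CPM in cKO, against 175 ± 7.20 CPM in WT (-0.41, SE 0.07, adjusted p = 0.00285). The ADP-ribosyltransferase genes Art4 (0.425 ± 0.216 CPM in cKO, against 1.85 ± 0.472 CPM in WT; -2.10, SE 0.31, adjusted p = 0.00201) and Art2b (2.12 ± 0.469 CPM in cKO, against 3.76 ± 0.368 CPM in WT; -0.83, SE 0.16, adjusted p = 0.00591) were lower, Art2b with a close paralog that could share its reads. The other called genes were Bst2, Efna4 and Cd24a, higher in cKO, and Cd52, Izumo1r, Prnp and Nt5e, lower in cKO. Genes of this list thus changed in both directions, with a median log2 fold change of -0.09. Calls of Nrn1, Art4, Cd48, Ulbp1, Art2b, Cd52 and Izumo1r remained in all 16 alternative settings, and without cKO 6 only these 7 were called. In log2 terms the fold change of Thy1 (-1.87) lay between those of Art4 and Art2b.

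**Figure D4:**
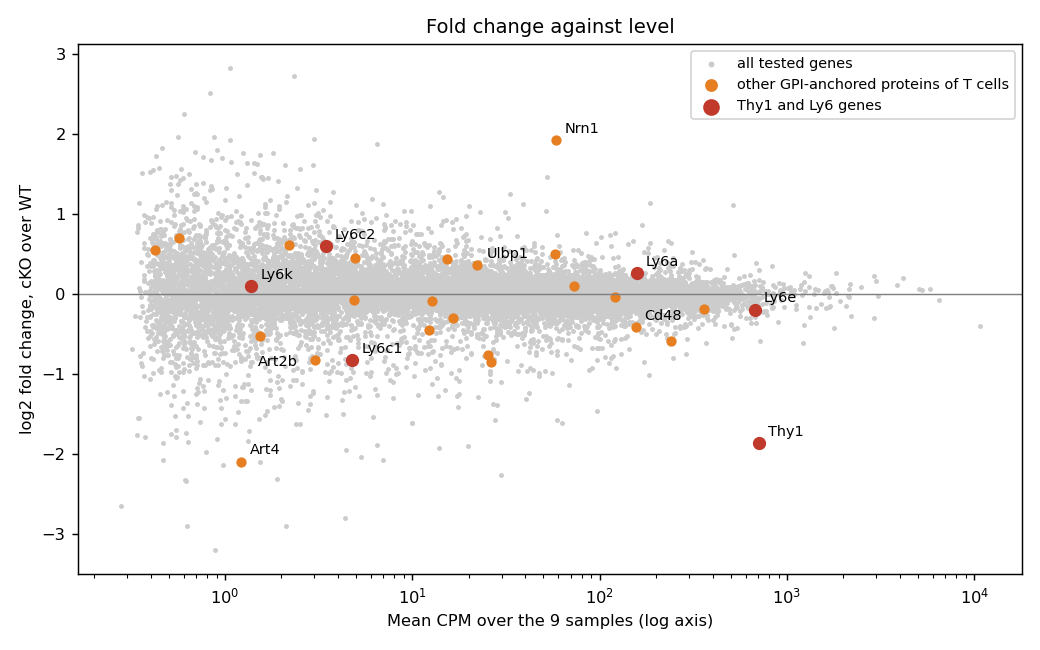
Log2 fold change (cKO over WT, vertical axis) against the mean CPM over the 9 samples (log axis) for all 14693 tested genes (grey), 22 genes listed as other GPI-anchored proteins of T cells (orange) and the 6 members (red). Thy1 at -1.87 lies below every other gene of at least 100 CPM, while Nrn1 at 1.92 and Art4 at -2.10 mark the ends of that list.

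The machinery that builds the GPI anchor and attaches it to proteins was examined through 33 tested genes. The edgeR test called 5 (15.2%, against 15.8% of all tested genes). Pign, Pigf and Pigb were higher in cKO by 0.18, 0.19 and 0.15 on the log2 scale (adjusted p = 0.0259, 0.0324 and 0.0411). Pigx and Pigh, a subunit of the enzyme of the first step, were lower in cKO, at log2 fold changes of -0.21 and -0.23 (adjusted p = 0.0280 and 0.0360). All were small changes, and the share called was near that of all genes. No call here was kept in every setting: the number called was 0 without WT 4 or WT 9 (9 and 11 at an unadjusted p below 0.05), 1 without cKO 2, cKO 6, cKO 8 or WT 3, 2 without cKO 7 and 3 without WT 5.

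Tested genes that start within 500 kb of the members were read beside them, leaving out the other Ly6/uPAR genes listed above (among them Lynx1, beside Ly6k, and 2010109I03Rik, between Ly6k and Ly6e). Of 26 such genes, 2 were called (7.69%, against 15.8% of all tested genes). Arc, a synaptic immediate early gene 124 kb from the outermost Ly6 member, was lower at 2.40 ± 0.164 CPM in cKO, against 4.71 ± 0.487 CPM in WT (log2 fold change -0.97, SE 0.11, edgeR adjusted p = 0.000484). Mcam, an adhesion molecule gene 91.1 kb from Thy1, was higher at 4.66 ± 0.751 CPM in cKO, against 2.76 ± 0.587 CPM in WT (0.77, SE 0.17, edgeR adjusted p = 0.0116). Usp2, the nearest of these to Thy1 at 23.6 kb, was at 3.65 CPM in cKO and 3.35 CPM in WT (log2 fold change 0.12, adjusted p = 0.645). Them6, the nearest of these to the Ly6 members, was at 44.4 CPM in cKO and 43.8 CPM in WT (0.02, adjusted p = 0.830).

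**Figure D5:**
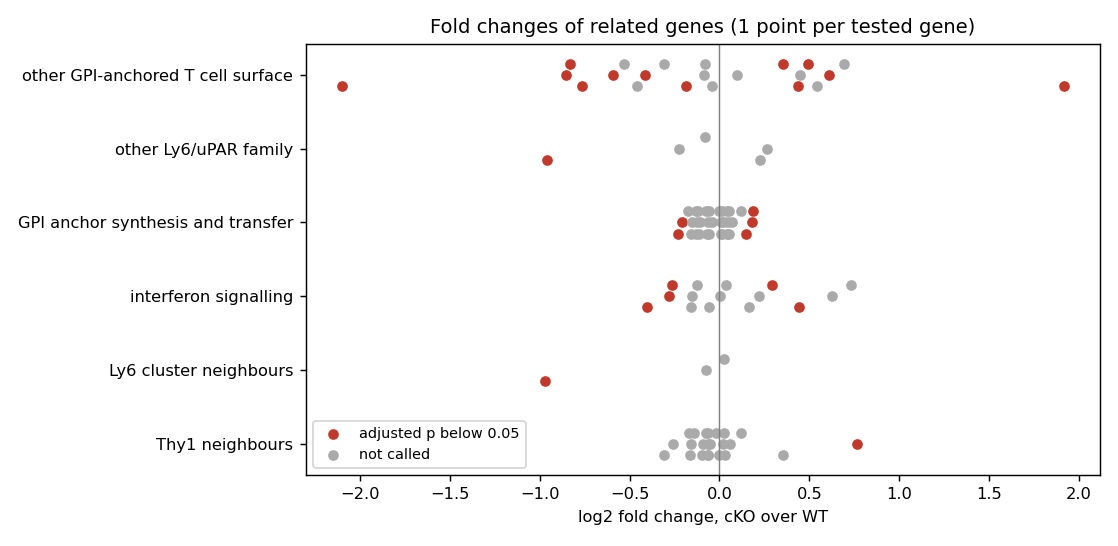
Log2 fold change (cKO over WT, horizontal axis) of every tested gene of the related lists and of the neighbours of the members, 1 point per gene, red where the edgeR adjusted p is below 0.05. The genes listed as other GPI-anchored proteins span -2.10 to 1.92 with 12 of 22 called. The GPI anchor synthesis genes lie within a narrow band around 0 with 5 of 33 called. The lists were chosen with earlier results of these data known.

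The genes whose profile over the 9 samples was most like that of each member were found by the root mean square distance of log2 CPM, each gene centred on its own mean, among 9487 genes of at least 10 CPM. Nearest to Thy1 was Sytl2, an effector of Rab27 in granule secretion, at a distance of 0.21. Sytl2 was at 4.34, 4.72, 6.77 and 5.95 CPM in cKO 2, 6, 7 and 8, against 18.5, 19.0, 23.1, 20.1 and 22.7 CPM in WT 1, 3, 4, 5 and 9. P2rx7, an ATP-gated channel (distance 0.22; 28.1 CPM in cKO and 83.8 CPM in WT on average), and D630039A03Rik (0.22; 13.2 CPM in cKO and 39.3 CPM in WT) came next. All 3 were lower in every cKO library than in every WT library, which the choice by likeness to Thy1 favours.

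For Ly6a the nearest was Il12rb2, a chain of the interleukin-12 receptor, at a distance of 0.40. It had 198, 85.1, 64.2 and 78.0 CPM in cKO 2, 6, 7 and 8, against 90.3, 93.7, 76.9, 146 and 66.0 CPM in WT 1, 3, 4, 5 and 9, again with cKO 2 and WT 5 on top. H2-Q6 (0.43), one of several near-identical class I genes, and Gm4951 (0.44) followed. For Ly6c1 the nearest was Tgm2, a transglutaminase gene, at 0.29, with 62.7, 13.8, 16.5 and 15.8 CPM in cKO 2, 6, 7 and 8, against 41.5, 54.2, 34.7, 59.8 and 24.5 CPM in WT 1, 3, 4, 5 and 9. It shared both the high cKO 2 and the low remaining cKO libraries, and F2r (0.50) and Fam71b (0.51) were the next. For Ly6c2 the nearest were Eomes (0.37), Usp18 (0.38) and H2-Q6 (0.38). Eomes, a T-box transcription factor, had 39.0, 17.8, 14.5 and 10.3 CPM in cKO 2, 6, 7 and 8, against 11.3, 9.32, 9.35, 18.2 and 6.45 CPM in WT 1, 3, 4, 5 and 9. Il12rb2, Tgm2 and Eomes, which do not lie in the Ly6 cluster, were each highest in cKO 2. They were picked for their likeness to these profiles over the same samples, so nothing further is read from this.

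Ly6e varied little, and its nearest genes Ece1, Itpr2 and Dnah17 lay at distances of 0.04 to 0.05. Ece1, an endothelin-converting enzyme gene, was at 48.1 CPM in cKO and 55.2 CPM in WT on average. Ly6k was followed poorly by any gene: Mtmr10, Creb3l2 and Gm6091 lay at 0.35 to 0.36, against 0.45 for a gene with no variation at all.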

How the data were processed

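RNA was measured in 9 bulk libraries, 4 cKO and 5 WT. Per the labels' protocols, mRNA was enriched and libraries came from a stranded kit. The counts are whole numbers per gene, deposited by the authors in 1 table without normalisation, with 39017 Ensembl IDs, of which 13708 were at 0 in all samples. The submitters' processing notes name bcl2fastq 2.17 and mm10. For aligner, counting tool, strand setting and annotation the entry is: not given in the sources used here. Columns were matched to samples by title, and 0 columns belonged to no sample. Symbols came from a table of gene IDs, and positions and exon lengths from GENCODE on mm10, not necessarily the authors' annotation.

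The counts were fitted with edgeR 4.0.16 in R 4.3.3 (TMM, filterByExpr, quasi-likelihood F test, two-sided, Benjamini-Hochberg over 14693 genes, adjusted p below 0.05). CPM used TMM-adjusted totals and, on the log2 scale, a prior count of 2. The biological coefficient of variation was 8.04%. Between samples of 1 group the chi-square per gene was 3.52 to 21.9, which is above sampling noise for every pair. Pearson's r across genes, which are not independent replicates, was 0.991 to 0.995 within groups and 0.982 to 0.991 between groups. Groups were taken from the labels, which give no batch. The scripts were tested on simulated data.

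The members and all gene lists were chosen with earlier results of these data known, and the members get no p-value. Named were all members, Kdm6a, Cd4, Cd3e and Ptprc; up to 5 called genes of each list and of the neighbours with the smallest adjusted p, plus the 2 most abundant tested genes where fewer than 2 were called; the 2 most abundant tested genes of each marker list, most of them given here only in the sum of their list; and for each member the 3 nearest profiles. The result of 1 called gene of interferon signalling is not reported here. Others are named as part of a count or were chosen after their values were seen (Ly6d, Irf7, Usp2, Them6 and single markers). The listed genes Ly6g2, Lypd8l, Lypd10 and H2-Q9 had no match. Alternatives were upper-quartile scaling, median-of-ratios size factors, 1 CPM or more in 4 samples as the filter, no filter, DESeq2 1.42.0, limma-voom (limma 3.58.1), leaving out each library, and summing Ly6c1 and Ly6c2. Leaving out cKO 2 and WT 5 together was added after seeing the data.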

Additional observations from a re-analysis of the deposited data

Results flagged for a closer look

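Ly6c1 in cKO 2, at 7.42 CPM, stood apart from the other 3 cKO libraries (1.82 to 2.06 CPM): the gap to the nearest of them was 0.958 of the range of the group. Among 14 groups of values examined in this way 1 stood out, and chance marks about 1 in 20. Ly6a and Ly6c2 were also highest in cKO 2 but did not pass this rule. The cause was not tested.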

How the results depend on the processing

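Of the values recomputed under other settings, 170 kept their direction and stayed within the limit set for a like value, and 34 did not. Thy1, Ly6e and Ly6c1 kept the direction of their difference under every setting run. Leaving out 1 library gave 1263 (without cKO 6) to 2933 (without WT 1) called genes, and log2 fold changes of -1.94 to -1.73 for Thy1, -0.48 to 0.61 for Ly6a, -0.25 to -0.16 for Ly6e, -1.62 to -0.49 for Ly6c1, 0.01 to 0.79 for Ly6c2 and -0.23 to 0.24 for Ly6k. The lists then had 0 to 1 (other Ly6/uPAR; 2 at an unadjusted p below 0.05 without cKO 7), 7 to 13 (other GPI-anchored), 0 to 5 (GPI anchor synthesis), 2 to 7 (interferon signalling) and 2 to 3 (neighbours) called genes. The excess mitochondrial share in cKO was 0.171 to 0.270 percentage points. Its exact permutation p was 0.0571 without WT 1, 3, 4 or 5, and 0.0179 to 0.0357 without any other library. With cKO 2 and WT 5 both left out, Ly6a was at -0.12, Ly6k at -0.36 and Ly6c1 at -1.28. In that setting 0 other Ly6/uPAR genes were called by edgeR (2 at an unadjusted p below 0.05) and 1 GPI anchor synthesis gene. With no count filter 2 other Ly6/uPAR and 3 GPI anchor synthesis genes were called, and DESeq2 called 2 other Ly6/uPAR genes. With Ly6c1 and Ly6c2 summed, the pair was at -0.21, against 0.60 for Ly6c2 alone. Upper-quartile scaling gave 1265 higher and 1068 lower genes, against 1028 and 1296. The causes were not tested beyond the smaller number of samples or genes. No paired analysis was possible because no replicate number occurs in both genotypes. Depth limits Ly6c1, Ly6c2 and Ly6k, with 17 to 236 counts per library.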
